A study of Mus musculus with 6 samples.

Results

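Prostanoid receptors are the cell-surface proteins through which prostaglandins and thromboxane act. Their 8 genes Ptger1, Ptger2, Ptger3, Ptger4, Ptgfr, Ptgir, Ptgdr and Tbxa2r were picked out by gene symbol, and all 8 were found among the 21936 rows of each table. RNA was measured in whole mouse uteri on gestational day 4, with the vaginal plug as day 1, in 3 Mettl3 d/d and 3 Mettl3 f/f libraries. Mettl3 encodes the methyltransferase that places N6-methyladenosine on messenger RNA, and d/d usually denotes a deleted and f/f a floxed allele. The females were mated with fertile males at 6 to 8 weeks of age. The labels name neither the Cre driver, the deleted exons nor whether each library came from 1 animal, so the spread that the p-values rest on is that among libraries and may be technical.

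All of these receptors pass signals to G proteins. EP2 (Ptger2), EP4 (Ptger4), the prostacyclin receptor IP (Ptgir) and the prostaglandin D receptor DP1 (Ptgdr) raise cyclic AMP through Gs. EP3 (Ptger3) lowers it through Gi. EP1 (Ptger1), the prostaglandin F receptor FP (Ptgfr) and the thromboxane receptor TP (Tbxa2r) raise calcium, FP and TP through Gq. In the uterus, prostaglandin E and prostacyclin take part in implantation and in the vascular and stromal response to the embryo, while FP and EP3 are known for contraction of the muscle layer.

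Values are FPKM, fragments scaled to gene length and library, so levels of different genes can be set side by side. The unit was inferred, since the file headers name none. Between 15965 and 16345 genes per library were above 0. The f/f libraries resembled each other (Spearman correlation over genes 0.984 to 0.988) more than the d/d libraries did (0.951 to 0.965), and the median SD of a tested gene on the log2 scale was 0.301 in d/d and 0.126 in f/f libraries. For Mettl3, d/d libraries had 42.9, 30.1 and 46.5 FPKM and f/f libraries 30.3, 29.8 and 26.3 FPKM. The log2 fold change was 0.43 (limma adjusted p = 0.202), and 0.62 (limma adjusted p = 0.0422) when d/d replicate 2 was left out. Exons that remain in a deleted allele enter such a value, and Tox4 on the other strand shares 933 bp of exons with Mettl3, so these values do not check the labels and d/d is used as labelled.

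No receptor gene passed the test across all genes. For the EP2, EP3 and EP4 genes, all 3 d/d values stood below all 3 f/f values, with mean levels in d/d of 0.311, 0.377 and 0.626 times those in f/f libraries. For the DP1 gene, which was too low to be tested, all 3 d/d values stood above all 3 f/f values. Whole uteri hold many cell types, so fewer cells of a type and less RNA per cell cannot be told apart. Of the 8 genes, 7 reached 1 FPKM in at least 3 libraries and were tested with limma on log2(FPKM + 1), and 0 of the 7 had an adjusted p under 0.05 over the 12979 genes tested. At an unadjusted p under 0.05 there were 3, against 26.7% of all genes tested. Across all genes, 7.30% were called, 3.49% higher and 3.81% lower in d/d. The groups did not overlap in 3 of the 7 tested receptor genes, all lower in d/d, against 35.9% of all tested genes, 18.1% higher and 17.8% lower in d/d. The median log2 fold change was -0.30 over the 7 tested receptor genes and 0.02 over all tested genes. The call count rested on single libraries: 1 receptor gene passed without d/d replicate 1 (Ptger2), 1 without d/d replicate 2 (Ptger3) and 1 without d/d replicate 3 (Ptger4). In each case the library left out held the d/d value nearest to the f/f libraries. More of all 12979 tested genes passed too: 1319, 1367 and 1005 without d/d replicates 1, 2 and 3, against 947 with all libraries. With a spread estimated for each genotype, Ptger2 passed.

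**Figure D1:**
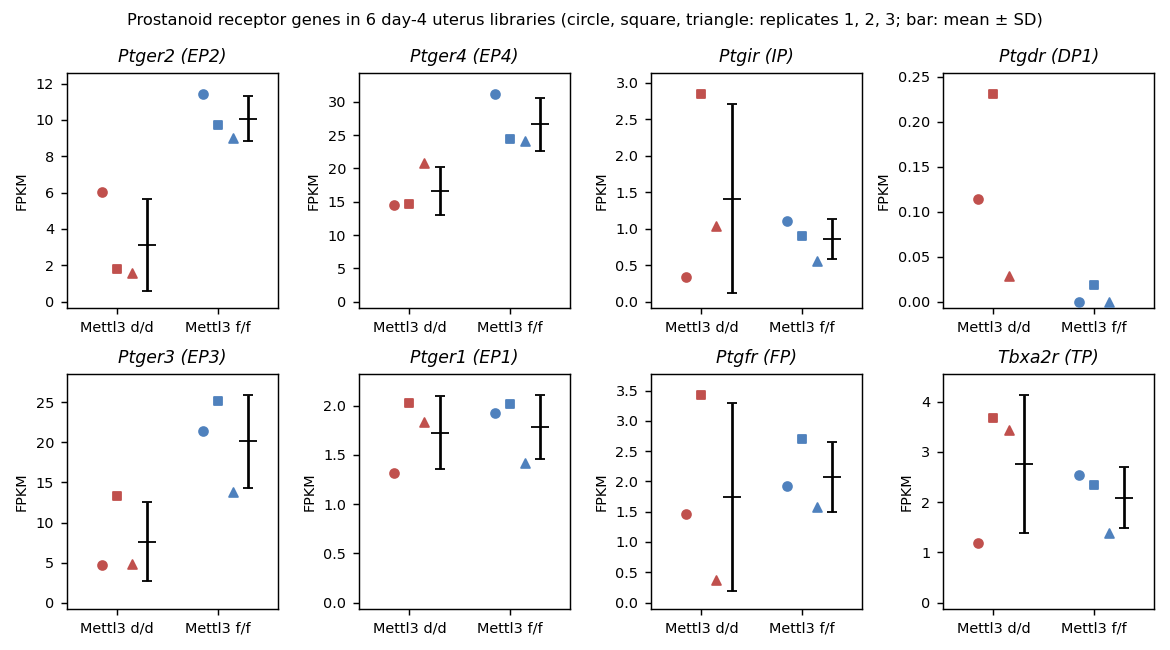
FPKM (y axis, own scale in each panel, starting near 0) of the 8 receptor genes in 3 Mettl3 d/d libraries (left, red) and 3 Mettl3 f/f libraries (right, blue), with mean ± SD as black bars except for Ptgdr, which was listed at 0 in 2 f/f libraries. For Ptger2, Ptger4 and Ptger3 all d/d points lie below all f/f points, while in Ptgir, Ptger1, Ptgfr and Tbxa2r the groups overlap.

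Ptger2 (ENSMUSG00000037759, chromosome 14, 44988195 to 45003820, plus strand, GRCm38) encodes EP2, a Gs-coupled receptor of prostaglandin E2 whose transcript is known from the luminal epithelium of the mouse uterus around implantation. It was at 6.06, 1.77 and 1.57 FPKM in d/d replicates 1, 2 and 3, against 11.4, 9.74 and 9.02 FPKM in f/f replicates 1, 2 and 3. The f/f libraries lay close together, whereas d/d replicate 1 stood well above the other d/d libraries. The means were 3.13 ± 2.53 FPKM in d/d and 10.1 ± 1.23 FPKM in f/f libraries (SD, n = 3 each), a ratio of 3.21 between f/f and d/d. The log2 fold change was -1.58 (SE 0.40, limma adjusted p = 0.0684, 95% interval -2.55 to -0.61), and 1.98% of all tested genes had a more negative one. The two-sided p of an exact permutation test was 0.1, the smallest possible with 3 libraries each. Leaving out d/d replicate 1 gave a log2 fold change of -2.05 (limma adjusted p = 0.00708). The adjusted p was 0.0445 with a spread for each genotype, and 0.183 to 0.225 with 1 f/f library left out. Gm17173 and Gm49364 overlap its exons on the other strand by 246 and 144 bp.

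Ptger4 (ENSMUSG00000039942, chromosome 15, 5206661 to 5244187, minus strand) encodes EP4, the other Gs-coupled prostaglandin E2 receptor. It had the highest mean level of the 8 genes in both genotypes. It was at 14.4, 14.7 and 20.8 FPKM in d/d replicates 1, 2 and 3, against 31.2, 24.4 and 24.2 FPKM in f/f replicates 1, 2 and 3. The d/d value nearest to the f/f libraries was that of replicate 3. The means were 16.6 ± 3.62 FPKM in d/d and 26.6 ± 3.97 FPKM in f/f libraries, and d/d differed from f/f by -0.66 ± 0.19 on the log2 scale (SE, limma adjusted p = 0.0887, 95% interval -1.11 to -0.20, exact permutation p = 0.1). Leaving out d/d replicate 3 gave -0.82 on the log2 scale (limma adjusted p = 0.0416), and with 1 f/f library left out the adjusted p was 0.202 to 0.284. A processed pseudogene, Gm15937, lies on the other strand and overlaps its exons by 1015 bp, and Ttc33 does so by 82 bp.

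Ptger3 (ENSMUSG00000040016, chromosome 3, 157566892 to 157645888, plus strand) encodes EP3, the Gi-coupled prostaglandin E2 receptor. It was at 4.72, 13.3 and 4.78 FPKM in d/d replicates 1, 2 and 3, against 21.5, 25.2 and 13.8 FPKM in f/f replicates 1, 2 and 3. The groups nearly touched, at 13.3 FPKM in d/d replicate 2 and 13.8 FPKM in f/f replicate 3. The means were 7.60 ± 4.94 FPKM in d/d and 20.2 ± 5.79 FPKM in f/f libraries, and d/d differed from f/f by -1.40 ± 0.42 on the log2 scale (SE, limma adjusted p = 0.0938, 95% interval -2.40 to -0.40, exact permutation p = 0.1). Leaving out d/d replicate 2 gave -1.84 on the log2 scale (limma adjusted p = 0.0195), and with 1 f/f library left out the adjusted p was 0.163 to 0.285. The low libraries were thus not the same in the 3 genes: d/d replicates 2 and 3 for Ptger2, 1 and 2 for Ptger4, and 1 and 3 for Ptger3.

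The promoters of the EP2, EP4 and EP3 genes are shown because these are the tested genes whose groups did not overlap. Each is the 250 bases before the RefSeq start site on GRCm38, read 5′ to 3′ on the gene's strand, with capitals for the GC box GGGCGG on either strand.
Ptger2, chr14:44987861-44988110, plus strand: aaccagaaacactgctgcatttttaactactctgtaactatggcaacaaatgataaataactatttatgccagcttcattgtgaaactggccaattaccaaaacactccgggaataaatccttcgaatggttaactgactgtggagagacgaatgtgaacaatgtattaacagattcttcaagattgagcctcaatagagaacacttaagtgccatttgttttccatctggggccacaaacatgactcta
Ptger4, chr15:5244188-5244437, minus strand: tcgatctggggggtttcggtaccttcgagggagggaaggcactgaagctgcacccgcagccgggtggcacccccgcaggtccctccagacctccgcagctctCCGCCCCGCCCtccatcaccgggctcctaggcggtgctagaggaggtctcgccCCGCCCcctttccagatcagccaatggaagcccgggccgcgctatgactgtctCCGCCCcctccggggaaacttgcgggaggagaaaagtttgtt
Ptger3, chr3:157566626-157566875, plus strand: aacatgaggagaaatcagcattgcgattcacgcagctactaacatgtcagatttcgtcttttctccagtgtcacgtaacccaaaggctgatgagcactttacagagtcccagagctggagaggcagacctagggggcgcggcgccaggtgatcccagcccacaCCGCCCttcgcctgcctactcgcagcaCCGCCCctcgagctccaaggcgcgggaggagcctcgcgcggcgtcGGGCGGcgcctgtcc
The Ptger2 promoter is rich in A and T, with 38.0% G or C and 3 CpG pairs, while Ptger4 and Ptger3 have 66.8% and 62.0% G or C and 19 and 21 CpG pairs. Among 20150 promoters of protein-coding genes, 21.3% had fewer CpG pairs than Ptger2, 73.0% fewer than Ptger4 and 77.7% fewer than Ptger3. GC boxes stand at 4 places in Ptger4, of which the first 2 share a base, at 3 in Ptger3 and at none in Ptger2, and 44.1% of all promoters held at least 1. The other motifs searched on both strands were the cyclic AMP response element TGACGTCA (in 1.99% of promoters) and the TATA box TATAAA (11.2%). Neither was found in the 3 windows.

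Ptgir, Ptger1, Ptgfr and Tbxa2r stood at low levels, and their groups overlapped. Ptgir encodes IP, the prostacyclin receptor of vessels, platelets and smooth muscle (chromosome 7, 16906490 to 16910905, plus strand). It was at 0.340, 2.85 and 1.04 FPKM in d/d replicates 1, 2 and 3, against 1.11, 0.897 and 0.563 FPKM in f/f replicates 1, 2 and 3. Both the lowest and the highest value were in d/d libraries. The log2 fold change was 0.25 (limma adjusted p = 0.722, 95% interval -0.71 to 1.21, exact permutation p = 0.8), and it was -0.15 without d/d replicate 2.

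Ptgfr encodes FP, the prostaglandin F receptor known for luteolysis and uterine contraction (chromosome 3, 151796502 to 151837630, minus strand). It was at 1.46, 3.43 and 0.366 FPKM in d/d replicates 1, 2 and 3, against 1.93, 2.70 and 1.58 FPKM in f/f replicates 1, 2 and 3. The d/d values differed 9.36-fold between the highest and the lowest library, and the f/f values 1.71-fold. The log2 fold change was -0.30 (limma adjusted p = 0.692, 95% interval -1.35 to 0.74, exact permutation p = 0.7), and it was 0.12 without d/d replicate 3.

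Tbxa2r encodes TP, the receptor of thromboxane, a constrictor of vessels and activator of platelets (chromosome 10, 81328731 to 81335172, plus strand). It was at 1.18, 3.67 and 3.43 FPKM in d/d replicates 1, 2 and 3, against 2.54, 2.34 and 1.39 FPKM in f/f replicates 1, 2 and 3. The f/f values fell between d/d replicate 1 and the other d/d libraries. The log2 fold change was 0.23 (limma adjusted p = 0.713, 95% interval -0.61 to 1.06, exact permutation p = 0.6).

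Ptger1 encodes EP1, the calcium-raising prostaglandin E2 receptor (chromosome 8, 83666678 to 83672753, plus strand). It was at 1.32, 2.03 and 1.83 FPKM in d/d replicates 1, 2 and 3, against 1.92, 2.02 and 1.42 FPKM in f/f replicates 1, 2 and 3. The 2 groups covered nearly the same range, and the log2 fold change was -0.03 (limma adjusted p = 0.933, 95% interval -0.49 to 0.43, exact permutation p = 0.7). Without a stated use of strand, the Ptger1 values are uncertain.

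Ptgdr encodes DP1, the Gs-coupled receptor of prostaglandin D2 (chromosome 14, 44851235 to 44859375, minus strand). It was the lowest of the 8 genes and did not reach 1 FPKM in any library. It was at 0.115, 0.231 and 0.0279 FPKM in d/d replicates 1, 2 and 3, against 0.0189 FPKM in f/f replicate 2 and a listed 0 in the other f/f libraries. All d/d values lay above all f/f values, at levels where a few fragments decide the value (exact permutation p = 0.1, the smallest possible). Fitted without a filter on low values, its log2 fold change was 0.16 (limma adjusted p = 0.252). Ptgdr and Ptger2 are neighbours, with 128819 bp and no other protein-coding gene between them in GENCODE M21. In Ptgdr the d/d libraries stood above the f/f libraries, and in Ptger2 below them. The second prostaglandin D2 receptor gene, Ptgdr2, belongs to another receptor family and was at 0.294, 0.125 and 0.317 FPKM in d/d and 0.758, 0.633 and 0.286 FPKM in f/f replicates 1, 2 and 3, with overlap between the genotypes.

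**Figure D2:**
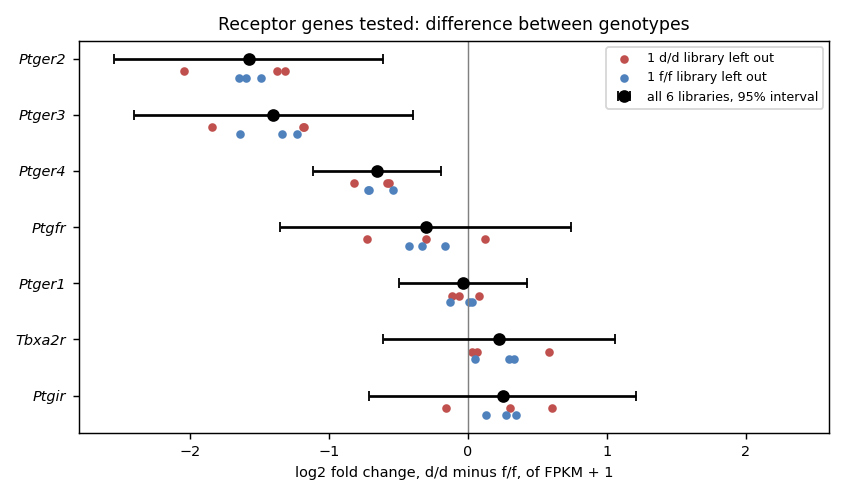
Difference of d/d from f/f in mean log2(FPKM + 1) (x axis, log2 fold change) of the 7 tested receptor genes, with the 95% limma interval from all 6 libraries (black) and the values with 1 d/d (red) or 1 f/f library (blue) left out. The intervals of Ptger2, Ptger3 and Ptger4 lie below 0, and those of the other 4 genes span 0. They are not adjusted for the number of genes tested, and none of the 7 genes had a limma adjusted p under 0.05.

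The order of levels was clearer in f/f than in d/d libraries. In f/f libraries Ptger4 (24.2 to 31.2 FPKM) and Ptger3 (13.8 to 25.2 FPKM) overlapped at the top, Ptger2 (9.02 to 11.4 FPKM) stood apart below them, and Tbxa2r, Ptgfr and Ptger1 overlapped one another between 1.39 and 2.70 FPKM. Ptgir followed at 0.563 to 1.11 FPKM. In d/d libraries Ptger4 (14.4 to 20.8 FPKM) stood apart at the top. Next by mean came Ptger3, Ptger2, Tbxa2r, Ptgfr, Ptger1 and Ptgir, and each of these overlapped the next.

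Summed over the 8 genes, the receptors stood at 29.6, 41.9 and 33.9 FPKM in d/d and 71.6, 67.3 and 52.0 FPKM in f/f replicates 1, 2 and 3. Every d/d sum was below every f/f sum. The Gs-coupled genes summed to 20.95, 19.5 and 23.5 FPKM in d/d and to 43.7, 35.1 and 33.8 FPKM in f/f libraries. The calcium-raising genes Ptger1, Ptgfr and Tbxa2r summed to 3.95, 9.13 and 5.63 FPKM in d/d and to 6.39, 7.06 and 4.39 FPKM in f/f libraries, and here the genotypes overlapped. As a share of all receptor FPKM, this class made up 13.3%, 21.8% and 16.6% in d/d and 8.93%, 10.5% and 8.44% in f/f libraries. Such a share depends on the total, most of which is Ptger4, Ptger3 and Ptger2, the genes with all d/d values below all f/f values. EP3 made up 15.9%, 31.7% and 14.1% in d/d and 30.0%, 37.4% and 26.6% in f/f libraries. The ratio of Ptger4 to Ptger2, which any scaling of a library leaves as it is, was steady in f/f libraries at 2.73, 2.51 and 2.68. It was 2.39 in d/d replicate 1, and 8.30 and 13.2 in d/d replicates 2 and 3. These sums and ratios are descriptions with no test.

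**Figure D3:**
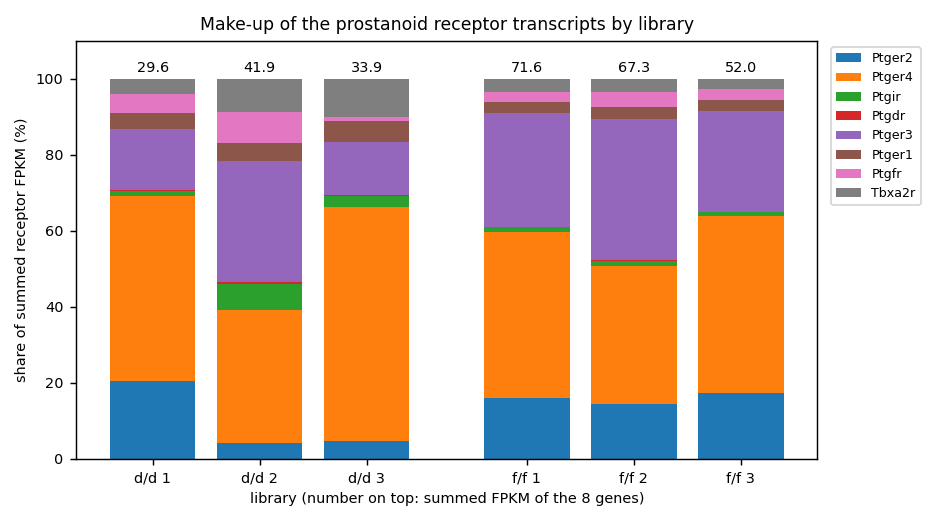
Share of each receptor gene (% of the summed FPKM of the 8 genes, y axis) in each library, d/d left and f/f right, with the summed FPKM above each bar. Ptger2 takes 20.4% in d/d replicate 1 but 4.21% and 4.64% in d/d replicates 2 and 3, against 14.5% to 17.4% in f/f libraries.

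The N6-methyladenosine complex acts on adenosines within short sequence contexts, of which GGACT in the DNA alphabet is a common one, and such methyl marks are known to cluster near stop codons. The principal GENCODE M21 transcripts of all 8 receptor genes hold GGACT, as did 91.9% of 12928 such transcripts of tested or receptor genes. Per kilobase, Tbxa2r had 2.08, Ptger2 1.90, Ptgir 1.51, Ptgdr 1.26, Ptgfr 1.21, Ptger4 0.919, Ptger1 0.852 and Ptger3 0.635, around a median of 1.06 over all these transcripts. Within 100 bases of the last base of the stop codon, 6 of the 8 receptor transcripts held a GGACT, against 25.02% of all. These were Ptger2, Ptger4 and Ptger3, and also Ptgfr, Ptgir and Tbxa2r, whose groups overlapped. The copy nearest to the stop codon is shown for the tested genes whose groups did not overlap, and for Ptgfr, where it almost touches the stop codon. Each is 21 bases of the sense strand on GRCm38 with GGACT in capitals.
Ptger2, coding sequence, chr14:45001896-45001916, plus strand: ctgttgtcGGACTtcactgag
Ptger4, after the stop codon, chr15:5234544-5234564, minus strand: cttcatctGGACTcccactag
Ptger3, coding sequence, chr3:157643886-157643906, plus strand: cctgaagtGGACTttcattgc
Ptgfr, coding sequence, chr3:151801620-151801640, minus strand: gtgaagctGGACTgtaaatca
Among the tested genes that did not overlap between genotypes, Ptger2 was in the upper and Ptger3 in the lower part of this range, with 85.5% and 24.4% of transcripts less dense. Methylation was not measured here, and a match of letters is not a methylated site.

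Of the pathway genes around the receptors, 4 were called. The 9 lists of ligand enzymes, other receptors, G proteins, effectors and regulators held 86 genes, of which 77 were tested, 1 was higher, 3 were lower and 73 did not pass. Over all tested genes 3.49% were higher and 3.81% lower, so the lists' counts lie near the background. With f/f replicate 1 or f/f replicate 2 left out, 0 were called. With f/f replicate 3 left out 1 was, and with d/d replicate 1 left out 3 were higher and 5 lower. Over all 12979 tested genes, 0, 30 and 111 were called without f/f replicates 1, 2 and 3. Without d/d replicate 1, 571 of them were higher and 748 lower. The largest of the 4 called changes in the lists was in Rgs2, which encodes a protein that shuts off Gq. It was at 35.3, 51.1 and 32.5 FPKM in d/d, against 257, 234 and 193 FPKM in f/f libraries, and fell by 2.51 on the log2 scale (limma adjusted p = 0.00644). Without f/f replicate 1 or 2 its adjusted p was 0.0578 or 0.0528. No other of the 8 desensitization genes was called, and Grk3, a receptor kinase gene, came closest (log2 fold change 0.91, limma adjusted p = 0.0589).

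Of 8 G protein alpha subunit genes, 1 rose and 1 fell. Gnai1, an alpha subunit of the Gi class that EP3 uses, was at 7.90, 4.32 and 2.91 FPKM in d/d, against 27.9, 28.3 and 23.3 FPKM in f/f libraries, and fell by 2.27 on the log2 scale (limma adjusted p = 0.0184). The more abundant Gnai2 and Gnai3 had log2 fold changes of 0.08 and 0.07 (limma adjusted p = 0.828 and 0.723). Gna13, an alpha subunit to which TP also couples, was at 17.9, 24.8 and 20.8 FPKM in d/d, against 11.6, 10.4 and 12.2 FPKM in f/f libraries, and rose by 0.83 on the log2 scale (limma adjusted p = 0.0343). Neither Gnai1 nor Gna13 was called without any 1 of the f/f libraries (adjusted p 0.0742 to 0.157), and Gna13 was not called without d/d replicate 3 (adjusted p = 0.0520). An antisense gene, Gm11696, shares 151 bp of exons with Gna13. Gnas, the Gs gene, was at 627, 682 and 663 FPKM in d/d and 871, 836 and 704 FPKM in f/f libraries, with no overlap but an adjusted p of 0.277 by limma.

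Among 6 transport and breakdown genes, 1 fell. Ptgr1, which encodes a reductase of prostaglandin and leukotriene metabolites, was at 7.53, 7.05 and 8.85 FPKM in d/d, against 14.2, 14.8 and 12.2 FPKM in f/f replicates 1, 2 and 3 (log2 fold change -0.74, limma adjusted p = 0.0384). This call was lost with any 1 library other than d/d replicate 3 left out (adjusted p 0.0502 to 0.179), without a filter on low values (0.0568) and with a spread for each genotype (0.0606). Slco2a1, the prostaglandin uptake transporter gene, was at 9.39, 9.95 and 22.0 FPKM in d/d and 3.85, 5.23 and 3.45 FPKM in f/f libraries (log2 fold change 1.43, limma adjusted p = 0.0588), and was called without d/d replicate 3. Of 12 tested ligand synthesis genes none was called, and those with the lowest p were Hpgds, a prostaglandin D synthase gene, and Ptges2, a prostaglandin E synthase gene (log2 fold change 1.36 and 0.65, limma adjusted p = 0.108 and 0.116).

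No gene was called among the 7 tested adenylyl cyclases, 8 phospholipase and calcium release genes, 14 cyclic AMP effector and phosphodiesterase genes, 2 tested other prostanoid receptors and 12 tested other lipid receptors. Of the genes with the lowest p in these lists, the log2 fold change was -0.85 for Adcy4 and -0.68 for Adcy9, both adenylyl cyclases, 0.71 for Itpr3 and -1.25 for Itpr2, both calcium release channels, and -0.33 for the phosphodiesterase gene Pde4a. It was -0.02 for Ppard and 1.03 for the leukotriene receptor gene Cysltr1 (limma adjusted p from 0.0610 to 0.962). Rapgef4, which encodes a cyclic AMP-regulated exchange factor, had a log2 fold change of -0.98 (limma adjusted p = 0.0516, but 0.0490 with libraries rescaled to the same total and 0.0474 without the intensity trend), and Pparg, a nuclear receptor gene, 1.05 (limma adjusted p = 0.0652). Lpar3, a lysophosphatidic acid receptor gene needed for on-time implantation, was at 30.0, 2.02 and 7.19 FPKM in d/d, against 45.7, 53.7 and 43.0 FPKM in f/f libraries (limma adjusted p = 0.116). Several of these genes passed with 1 d/d library left out: Itpr2 and Lpar3 were lower without replicate 1 (limma adjusted p = 0.0393 and 0.0197), and without replicate 2 Adcy4 was lower and Itpr3 higher (0.0248 and 0.0247). Likewise Grk3 was higher without replicate 1 (0.0384) and Hpgds without replicate 3 (0.0341). Over all tested genes, 1319, 1367 and 1005 were called without d/d replicates 1, 2 and 3, against 947 with all libraries. As with Ptger2, the Lpar3 value of d/d replicate 1 stood nearest to the f/f libraries.

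**Figure D4:**
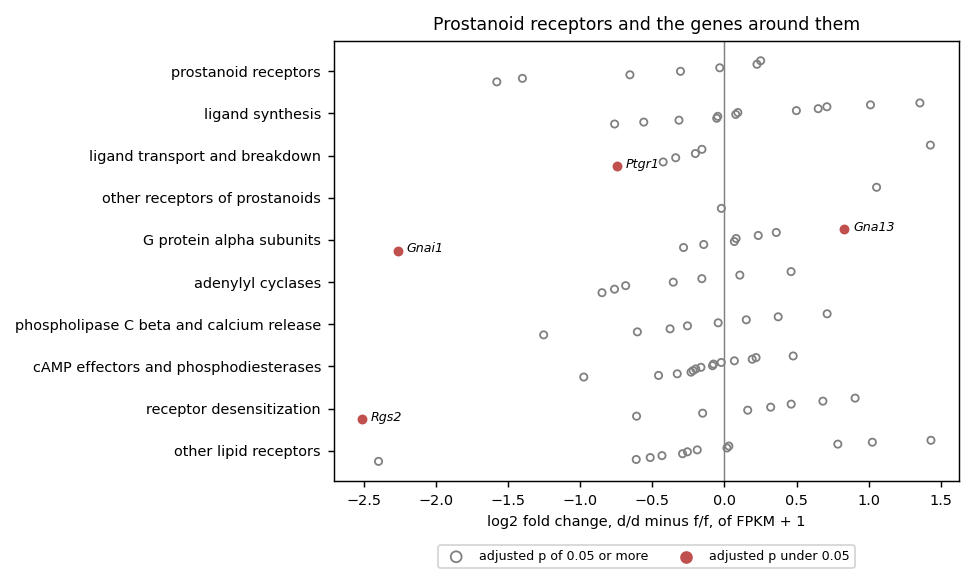
Difference of d/d from f/f in mean log2(FPKM + 1) (x axis, log2 fold change) of each tested gene, by list, with the 7 tested receptor genes in the top row. Filled red points mark the 4 genes with an adjusted p under 0.05, which are Ptgr1, Gna13, Gnai1 and Rgs2.

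Marker lists of 14 cell types moved between the libraries. Epithelium markers, 10 of 10 measured, summed to 2037, 841 and 3341 FPKM in d/d replicates 1, 2 and 3, against 1143 to 1344 FPKM in f/f libraries. Ptger2 was lowest in d/d replicate 3 (1.57 FPKM), the library with the highest epithelial sum. It was nearly as low in d/d replicate 2 (1.77 FPKM), the library with the lowest epithelial sum. Of 10 tested epithelium markers, 3 were called higher and 0 lower in d/d, and without overlap 4 stood higher and 1 lower. Gland markers (7 of 7) summed to 119, 44.0 and 21.1 FPKM in d/d, against 87.4 to 119 FPKM in f/f libraries, with d/d replicates 2 and 3 low as for Ptger2. The gland markers did not all move the same way: of 5 tested, 2 were called lower and 1 higher in d/d. Pericyte markers (6 of 6) summed to 67.1, 108 and 50.8 FPKM in d/d, against 174 to 186 FPKM in f/f libraries, and endothelium markers (10 of 10) to 397, 489 and 281 FPKM, against 487 to 751 FPKM. Among d/d libraries Ptger3 was highest in replicate 2, as were the pericyte, endothelium and stroma sums. So were the sums of all blood cell lists and of the neuron and glia list given below. Smooth muscle markers (10 of 10) summed to 1257, 2255 and 5096 FPKM in d/d and 2753 to 6455 FPKM in f/f libraries, and stroma markers (10 of 10) to 1870, 4487 and 3644 FPKM in d/d and 3209 to 3548 FPKM in f/f libraries. The part of these cell types in the receptor values was not tested.

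Summed blood cell markers were highest in d/d replicate 2. Macrophage and myeloid markers (10 of 10) summed to 1192, 3899 and 528 FPKM in d/d replicates 1, 2 and 3, against 410 to 558 FPKM in f/f libraries. Neutrophil markers (8 of 8) summed to 30.8, 1127 and 27.1 FPKM in d/d, against 6.59 to 13 FPKM in f/f libraries. The median neutrophil marker deviated from the f/f mean by 0.74, 3.97 and -0.32 on the log2(FPKM + 1) scale in d/d replicates 1, 2 and 3. Platelet and megakaryocyte markers (6 of 6) summed to 19.1, 158 and 39.05 FPKM in d/d, against 15.9 to 26.8 FPKM in f/f libraries, mast cell markers (7 of 7) to 11.4, 35.4 and 8.92 FPKM, against 15.1 to 23.0 FPKM, and lymphocyte and natural killer cell markers (10 of 10) to 15.2, 74.9 and 3.48 FPKM, against 19.1 to 29.2 FPKM. The platelet sum was not shared by the typical marker of that list, whose deviation from the f/f mean on the log2(FPKM + 1) scale was 0.13 in d/d replicate 2, close to the 0.10 of replicate 3. The 5 receptor genes Ptgir, Ptgfr, Tbxa2r, Ptger1 and Ptgdr had their highest value of all 6 libraries in d/d replicate 2. For Ptger1 the lead over f/f replicate 2 was slight (2.03 against 2.02 FPKM), and Ptgdr reached only 0.231 FPKM. How many of all genes were highest in d/d replicate 2 was not counted, so this may be general to that library. The relation of these receptor genes to the blood cells was not tested. Mesothelium markers (5 of 5) summed to 53.4, 41.9 and 14.8 FPKM in d/d, against 57.6 to 78.2 FPKM in f/f libraries. The median mesothelium marker went the other way in d/d replicates 1 and 2, at 1.21 and 1.08 above the f/f mean on the log2(FPKM + 1) scale. Neuron and glia markers (6 of 6) summed to 5.27, 12.9 and 6.81 FPKM in d/d, against 12.7 to 17.2 FPKM. Their median marker moved little, by -0.19, -0.13 and -0.09 on the same log2 scale in d/d replicates 1, 2 and 3. Ovary and oviduct markers (6 of 6) summed to 21.4, 8.49 and 3.49 FPKM in d/d, against 25.2 to 95.6 FPKM in f/f libraries, with Cyp19a1, Fshr and Zp3 at 0 in all libraries. The median of this list, which the genes at 0 hold near 0, deviated by -0.07, 0.00 and -0.04 in d/d replicates 1, 2 and 3.

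**Figure D5:**
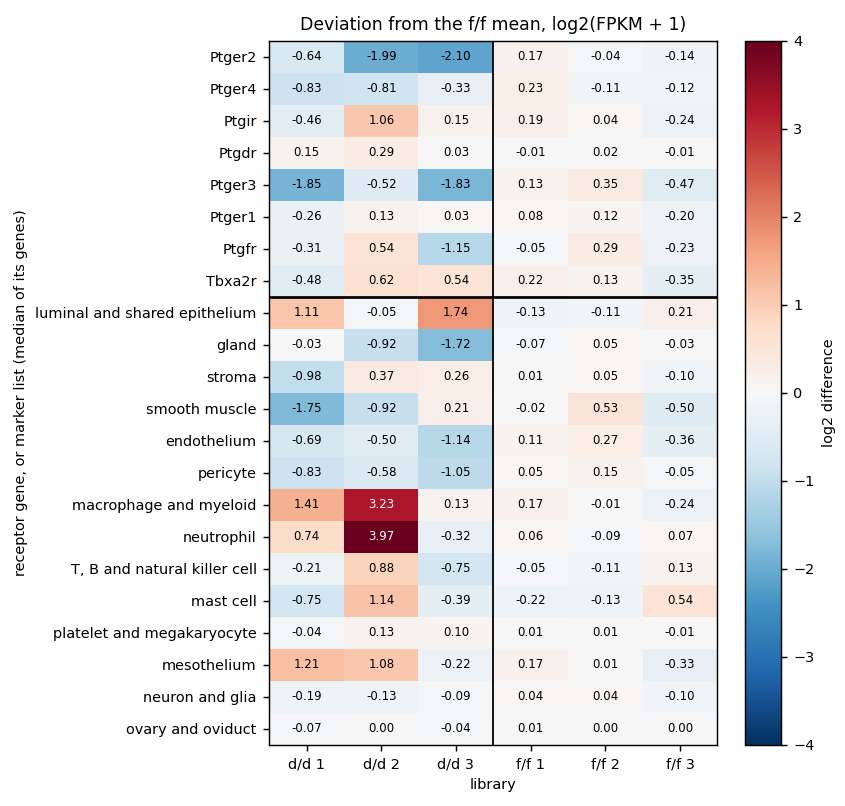
Difference from the f/f mean on the log2(FPKM + 1) scale (colour and number) in each library for the 8 receptor genes (above the line) and for the median gene of 14 cell type marker lists (below it), d/d left and f/f right. Ptger2 reads -1.99 and -2.10 in d/d replicates 2 and 3 and -0.64 in replicate 1, and the neutrophil list reads 3.97 in d/d replicate 2.

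Likeness was measured by Pearson's r of log2(FPKM + 1) over the 6 libraries. Receptor genes and clone-type names, such as Gm or Rik, were left out. Of the remaining tested genes, those most like Ptger2 were Dnal1 (r = 0.999), Nfia (r = 0.996) and Fxr1 (r = 0.995). Those most like Ptger4 were Mlec (r = 0.996), Pqbp1 (r = 0.991) and Cdc23 (r = 0.990). Those most like Ptger3 were Adcy4 (r = 0.998), an adenylyl cyclase gene, Slc41a3 (r = 0.996) and Cdh2 (r = 0.994), and Adcy4 itself was at 6.35, 11.3 and 6.75 FPKM in d/d, against 15.7, 17.3 and 12.5 FPKM in f/f replicates 1, 2 and 3. For Ptgir they were Adora2b, Helb and Blvra, for Ptger1 Akt2, Dnajb5 and Pidd1, for Ptgfr Tbkbp1, Ppp1r16b and Neurl2, and for Tbxa2r Cfl1, Gtpbp3 and Myo1c (r from 0.974 to 0.998). Each is among the highest r of the genes kept, out of 12979 tested, over 6 libraries and is a description.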

How the data were processed

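RNA of 6 whole-uterus samples was sequenced after TRIzol extraction and Illumina TruSeq library preparation, per the labels' protocols. The authors deposited 1 table of FPKM values per library. The unit is inferred from decimal values, unequal totals and the listing of Cufflinks. HISAT2 2.2.1 and Cufflinks 2.2.1 are listed per the submitters' processing notes, with the builds mm9 and mm10. The sources used here give neither the build used, the annotation nor whether strand was used, and these steps decide how fragments of overlapping genes and copies are shared out. The files give no read numbers, so absolute depth is unknown and no counting interval can be given. Relative depth, estimated from the most frequent ratio of values below 0.3 FPKM, was 0.935 to 1.01 times that of f/f replicate 1, with only ratios near equality searched.

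For symbols on several rows only the row of highest mean entered (36 rows left out). Genes with at least 1 FPKM in at least 3 libraries were tested by limma 3.58.1 (R 4.3.3) on log2(FPKM + 1) (genotype model, intensity trend, two-sided, Benjamini-Hochberg over 12979 genes, called under 0.05). This scale understates changes of low genes. The fit was also run on simulated data, and the outcome is not reported here. Single genes also had an exact permutation test. A listed 0 may be a failed estimate, so such genes are given by library. Annotation came from GENCODE M21, promoters from RefSeq, of which 7 of 8 receptor genes had one. The receptors and lists were chosen with earlier results of these data known. Named besides the receptors are called genes and the 2 with the lowest p of each list. The 3 genes most like each receptor, clone-type names left out, are named too. Gnai2, Gnai3, Gnas and Ptgdr2 were named outside this rule, after their values were seen. Some results are not reported here. Alternatives were rescaling, pseudocount 0.1, other filters, summed rows, no trend, a spread for each genotype, a replicate block and leaving out each library.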

Additional observations from a re-analysis of the deposited data

How the results depend on the processing

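Under the 9 alternatives other than leaving out a library, 62 of the 63 receptor results stayed on the same side of the threshold. The 1 that passed was Ptger2 with a spread for each genotype (-1.58, limma adjusted p = 0.0445), which made 1 receptor gene called. No direction changed, but among these alternatives only rescaling and pseudocount 0.1 could change it. The others leave the receptor log2 fold changes as they are and bear on the adjusted p alone. Rescaling moved the median of all genes by less than 0.1 on the log2 scale. Leaving out 1 library at a time gave log2 fold changes of -2.05 to -1.32 for Ptger2, -0.82 to -0.54 for Ptger4, -1.84 to -1.18 for Ptger3, -0.15 to 0.61 for Ptgir, -0.73 to 0.12 for Ptgfr, -0.13 to 0.080 for Ptger1 and 0.03 to 0.58 for Tbxa2r, with 0 to 1 receptor genes called. Ptger1 turned sign without d/d replicate 1, f/f replicate 1 (0.01) and f/f replicate 2 (0.03), Ptgir without d/d replicate 2 and Ptgfr without d/d replicate 3, none of them past the threshold. The count of genes called, 947, ranged from 0 to 1367, with 0 to 729 higher and 0 to 748 lower. Without f/f replicates 1, 2 and 3 it was 0 (2292 at an unadjusted p under 0.05), 30 and 111. Without a filter on low values, 291 genes were higher. Ppard, at -0.02 with all libraries, ranged from -0.19 to 0.19.

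The labels do not say whether replicate numbers pair the libraries. Same-numbered libraries correlated at -0.02, 0.02 and -0.02 in their deviations from the genotype means. With 3 libraries of each genotype, these correlations cannot exclude a pairing. With a replicate block, 100 genes were called, 51 higher and 49 lower, and no receptor gene passed (adjusted p 0.0873 for Ptger2, 0.174 for Ptger4 and 0.0830 for Ptger3). Of the pathway genes, Ptgr1 (0.125) and Gna13 (0.105) were not called with the block, leaving 0 higher and 2 lower. Read numbers are unknown, so the counting error of low genes such as Ptgdr cannot be given.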
